A study of Mus musculus with 12 samples.

Results

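The step from the base to the middle of the newborn mouse cochlea, the basal end of the tonotopic gradient, was measured on 4 of the 12 arrays of the series, 2 of P0 base and 2 of P0 middle. The mice were wild-type C57BL/6 pups at postnatal day 0 (P0), and no group carried a transgene or received a treatment. The P0 apex arrays and the arrays of P8 base, middle and apex, cut from pups of the same strain at postnatal day 8, are used below for comparison. After the otic capsule was removed, the remaining tissue, which held the sensory epithelium, the limbus and the lateral wall, was divided into 3 pieces, and the pieces of many temporal bones were pooled before RNA extraction. The dissection was repeated, so each region and age has 1 array from a first and 1 from a second set, and the base and middle pieces of 1 set at P0 come from the same pool of cochleae. The comparison is therefore made within each pool, with n = 2 pools. Each RNA was hybridized to an Affymetrix Mouse Gene 1.0 ST array, and the values are log2 signals from robust multiarray averaging (RMA), so that a difference of 1 corresponds to a doubling. Of 19938 genes with an entry of their own, 16306 had a mean above a log2 level of 6 in at least 1 of the 6 groups and were tested. In a limma fit of all 12 arrays, with the pool as a replicate block, a gene counted as past the test when its p, adjusted by Benjamini-Hochberg, was under 0.05 and its fold reached 1.5. Where the lower of the 2 means lay at or under the level of 6, the difference is given as a lower bound against that level. In bulk pieces of tissue, fewer cells of a type and less RNA per cell cannot be told apart.

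The mammalian cochlea sorts sound by place, with high frequencies detected at the base and low frequencies at the apex. Its sensory epithelium matures as a wave along the duct around birth, so a basal piece and a middle piece of a newborn cochlea differ both in place and in developmental stage. Hair cells and supporting cells lie under the tectorial membrane, a sheet of collagens, tectorins and otogelins, while the outer sulcus and lateral wall move ions that keep the endolymph rich in potassium. Markers of these cells were well above the level of 6 in all 4 arrays. Pou4f3, a transcription factor of hair cells, had log2 signals of 7.35 and 7.83 in the base and 7.78 and 8.03 in the middle. For Sox2, a factor of prosensory and supporting cells, the signals were 9.15 and 9.06 in the base and 9.31 and 9.51 in the middle, and for Dct, a pigment enzyme of strial intermediate cells, they were 10.98 and 11.12 in the base and 11.04 and 11.19 in the middle. The study's in situ hybridization at P0 barely detected the follistatin gene Fst in the basal turn but found it in the middle turn. In the same sections of work Tectb rose and A2m fell toward the apex. The array values of these genes are given below, but the regional labels were not tested against them.

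The step from base to middle was small for most genes. The median absolute difference was 0.0909 on the log2 scale, against 0.0775 for the step from middle to apex at P0 and 0.105 for middle against base at P8, and the median SE was 0.118. The pools were not equally quiet: the differences had an SD over genes of 0.226 in the first pool and 0.134 in the second. A fold of 1.5 was reached by 257 genes in the first pool and by 49 in the second, and by 16 genes in the same direction in both, 12 of them higher in the middle and 4 in the base. Over genes, which do not count as independent replicates, the correlation between the pools was r = 0.284. The difference had the same sign in both pools in 58% of genes, and base and middle arrays did not overlap in 19.3%. The middle was higher in 57.8% of all tested genes, with a median difference of 0.03, and this is the background for every count below. The median was 0.05 in the first pool and −0.0027 in the second, so the second pool did not show this shift.

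**Figure D1:**
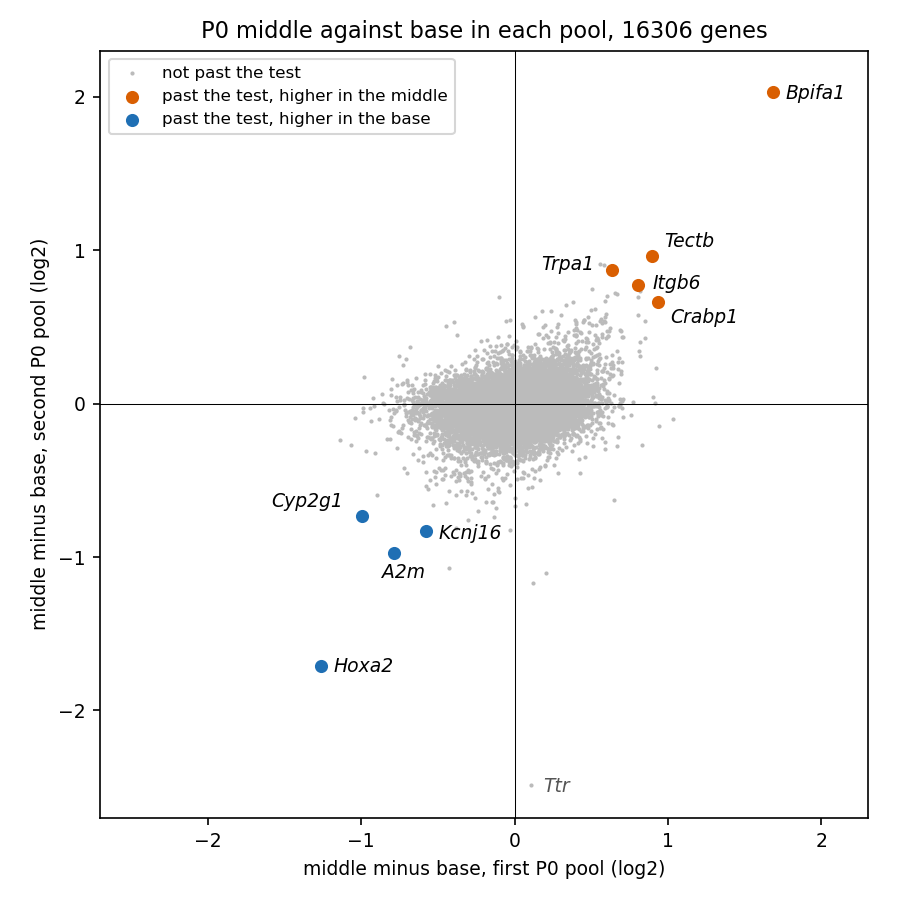
Log2 difference of P0 middle over P0 base in the first pool on the x axis and in the second pool on the y axis, 1 point for each of the 16306 tested genes. Orange and blue points are past the test, higher in the middle and in the base, respectively. Bpifa1 lies apart at 1.68 and 2.03, and Ttr, at the bottom, differed by 0.10 in the first pool and by −2.49 in the second.

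The test was passed by 9 genes, or 0.0552% of those tested. The middle was higher in 5 of them (0.0307%), Bpifa1, Tectb, Crabp1, Itgb6 and Trpa1, and the base in 4 (0.0245%), Hoxa2, A2m, Cyp2g1 and Kcnj16. Before adjustment, p was under 0.05 at this fold for 19 genes on the side of the middle (0.117%) and 12 on that of the base (0.0736%), and without the fold threshold 449 (2.75%) and 460 (2.82%). In limma without the replicate block no gene passed after adjustment, and the lowest adjusted p from limma among the 9 was then 0.0546, for Bpifa1. When any of the 4 arrays of P0 base and P0 middle was left out, so that 1 pool alone held both regions, Bpifa1 was the only gene of the 9 still past the test. The other 8 kept their direction in each of these fits, with adjusted p from limma between 0.0554 and 0.9999, while Bpifa1 kept an adjusted p of at most 0.0275.

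RefSeq (GRCm38.p6) gives the 250 bases before the transcription start for 6 of the 9 genes, and those of Bpifa1, Tectb, Crabp1 and Hoxa2 are shown because these genes had the largest differences with a sequence at hand. Windows of this length were searched on both strands for TATAAA (the TATA box), GGGCGG (the GC box bound by Sp1) and AGGTCA (the core bound by nuclear receptors), which occur in 12.4%, 32.7% and 14% of 32851 promoter windows, and each match is in capitals. The Bpifa1 window (chr2:154142630-154142879, plus strand) has 1 TATA box that begins 29 bases before the start.
Bpifa1: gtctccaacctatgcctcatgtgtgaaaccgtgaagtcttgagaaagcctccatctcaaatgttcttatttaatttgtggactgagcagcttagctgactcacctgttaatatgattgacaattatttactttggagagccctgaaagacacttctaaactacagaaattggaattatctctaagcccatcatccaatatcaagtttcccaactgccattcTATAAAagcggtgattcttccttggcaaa
Only these exact letters were searched for, in all windows, and variant forms of a motif were not. The Tectb window (chr19:55180476-55180725, plus strand) holds none of the 3 motifs in these letters, although it contains the TATA-like stretch tatataag.
Tectb: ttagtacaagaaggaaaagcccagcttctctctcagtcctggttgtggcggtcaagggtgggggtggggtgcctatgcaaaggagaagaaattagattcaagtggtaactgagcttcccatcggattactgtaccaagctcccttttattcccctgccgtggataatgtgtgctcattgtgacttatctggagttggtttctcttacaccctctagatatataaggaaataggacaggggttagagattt
The Crabp1 window (chr9:54764498-54764747, plus strand) holds 5 GC boxes, which begin 178, 86, 49, 25 and 12 bases before the start, and its GC content is 63.6%, against 39.2% for Bpifa1 and 46.0% for Tectb.
Crabp1: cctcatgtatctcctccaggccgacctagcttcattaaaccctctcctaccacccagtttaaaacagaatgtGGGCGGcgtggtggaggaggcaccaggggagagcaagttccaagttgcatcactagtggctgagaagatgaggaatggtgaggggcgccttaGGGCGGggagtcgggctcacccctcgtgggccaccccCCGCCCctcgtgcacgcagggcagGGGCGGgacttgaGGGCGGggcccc
The Hoxa2 window (chr6:52164832-52165081, minus strand, printed 5′ to 3′ in the direction of transcription) holds none of the 3 motifs.
Hoxa2: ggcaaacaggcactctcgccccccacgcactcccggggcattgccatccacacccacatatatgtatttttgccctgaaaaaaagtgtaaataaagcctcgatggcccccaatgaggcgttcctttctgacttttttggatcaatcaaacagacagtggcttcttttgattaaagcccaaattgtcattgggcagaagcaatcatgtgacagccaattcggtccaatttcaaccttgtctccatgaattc
Among the windows not shown, that of Kcnj16 holds AGGTCA at 190 and 164 bases before the start, and that of Itgb6 holds none of the 3.

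Bpifa1, a secreted protein of airway and middle ear epithelium, had the largest difference on either side. Its log2 signal was 5.73 and 5.81 in the base, 7.41 and 7.84 in the middle and 5.90 and 5.71 in the apex, first and second pool in that order. Both middle arrays lay far above the other 4 of P0, all of which were under the level of 6, as were 4 of the 6 arrays of P8, the highest of which read 6.05. The difference of middle over base was 1.86 ± 0.14 (SE, n = 2 pools, adjusted p = 9.12e-05 from limma), at least 3.09-fold against the level of 6. Values of other genes of these epithelia, named after they were seen, stand beside it, and their part in the result was not tested. Bpifb1, a relative of Bpifa1, had 5.91 and 5.83 in the base and 5.70 and 5.74 in the middle, under the level in all 4 arrays. Muc5b, a gel-forming mucin, had 6.36 and 6.41 in the base and 6.50 and 6.63 in the middle, higher in the middle of both pools with a difference of 0.18 (adjusted p = 0.901 from limma). Ltf, which encodes lactoferrin, had 6.01 and 5.78 against 6.00 and 5.89, and Bpifa2 lay at 5.48 to 5.66 in these arrays. Scgb3a1, a secretoglobin, had 6.50 and 6.56 in the base and 6.36 and 6.59 in the middle, lower in the middle of the first pool and slightly higher in that of the second. Apart from Muc5b and Scgb3a1 these genes lay at or under the level, where no difference could be read.

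Tectb encodes β-tectorin, a glycoprotein of the tectorial membrane. Its log2 signal was 10.95 and 11.39 in the base and 11.84 and 12.36 in the middle. The middle exceeded the base in each pool, by 0.90 and 0.96, and the arrays of the regions did not overlap, although the second pool read higher than the first in both. The difference was 0.93 ± 0.11 (SE, n = 2 pools, adjusted p = 0.00618 from limma), or 1.91-fold.

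Crabp1, the cellular retinoic acid binding protein, had log2 signals of 10.01 and 10.81 in the base and 10.95 and 11.48 in the middle. The second base array lay just under the first middle array, and within each pool the middle was higher, by 0.93 and 0.66. The difference was 0.80 ± 0.12 (SE, n = 2 pools, adjusted p = 0.0402 from limma). Itgb6, the β6 integrin subunit of epithelial cells that binds latent TGF-β, read 8.01 and 8.65 in the base and 8.81 and 9.43 in the middle, a difference of 0.79 ± 0.11 (adjusted p = 0.0219 from limma). Trpa1, a cation channel best known from sensory neurons and also detected in hair cells, read 5.73 and 6.04 in the base and 6.37 and 6.91 in the middle. Its base mean was under the level of 6, so the difference of 0.75 ± 0.12 (adjusted p = 0.0450 from limma) stands for at least 1.56-fold. In these genes, as in Tectb, both regions read higher in the second pool than in the first.

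On the basal side, Hoxa2 had the largest difference. This homeobox gene specifies the hindbrain and the second branchial arch, from which middle ear structures arise. Its log2 signal was 6.90 and 7.48 in the base and 5.63 and 5.78 in the middle. Both base arrays lay above the level of 6 and both middle arrays under it, so that the difference of −1.49 ± 0.20 (SE, n = 2 pools, adjusted p = 0.0219 from limma) stands for a signal at least 2.28-fold higher in the base. A2m, which encodes the protease inhibitor α2-macroglobulin, read 9.62 and 9.81 in the base and 8.84 in both middle arrays, a difference of −0.88 ± 0.13 (adjusted p = 0.0402 from limma). The base arrays of A2m lay close together and well above the middle arrays.

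Kcnj16, which encodes the inward rectifier potassium channel Kir5.1 of the outer sulcus and lateral wall, read 7.11 and 7.48 in the base and 6.53 and 6.65 in the middle. Its difference was −0.70 ± 0.11 (SE, n = 2 pools, adjusted p = 0.0402 from limma), or 1.63-fold higher in the base, the smallest difference that passed. Cyp2g1, a cytochrome P450 best known from olfactory mucosa, read 6.16 and 6.61 in the base and 5.17 and 5.87 in the middle, a difference of −0.86 ± 0.13 (adjusted p = 0.0402 from limma) that stands for at least 1.31-fold. Both genes were higher in the base of each pool and the arrays of the regions did not overlap, but Cyp2g1 stayed within 1 log2 unit of the level in all 4 arrays.

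**Figure D2:**
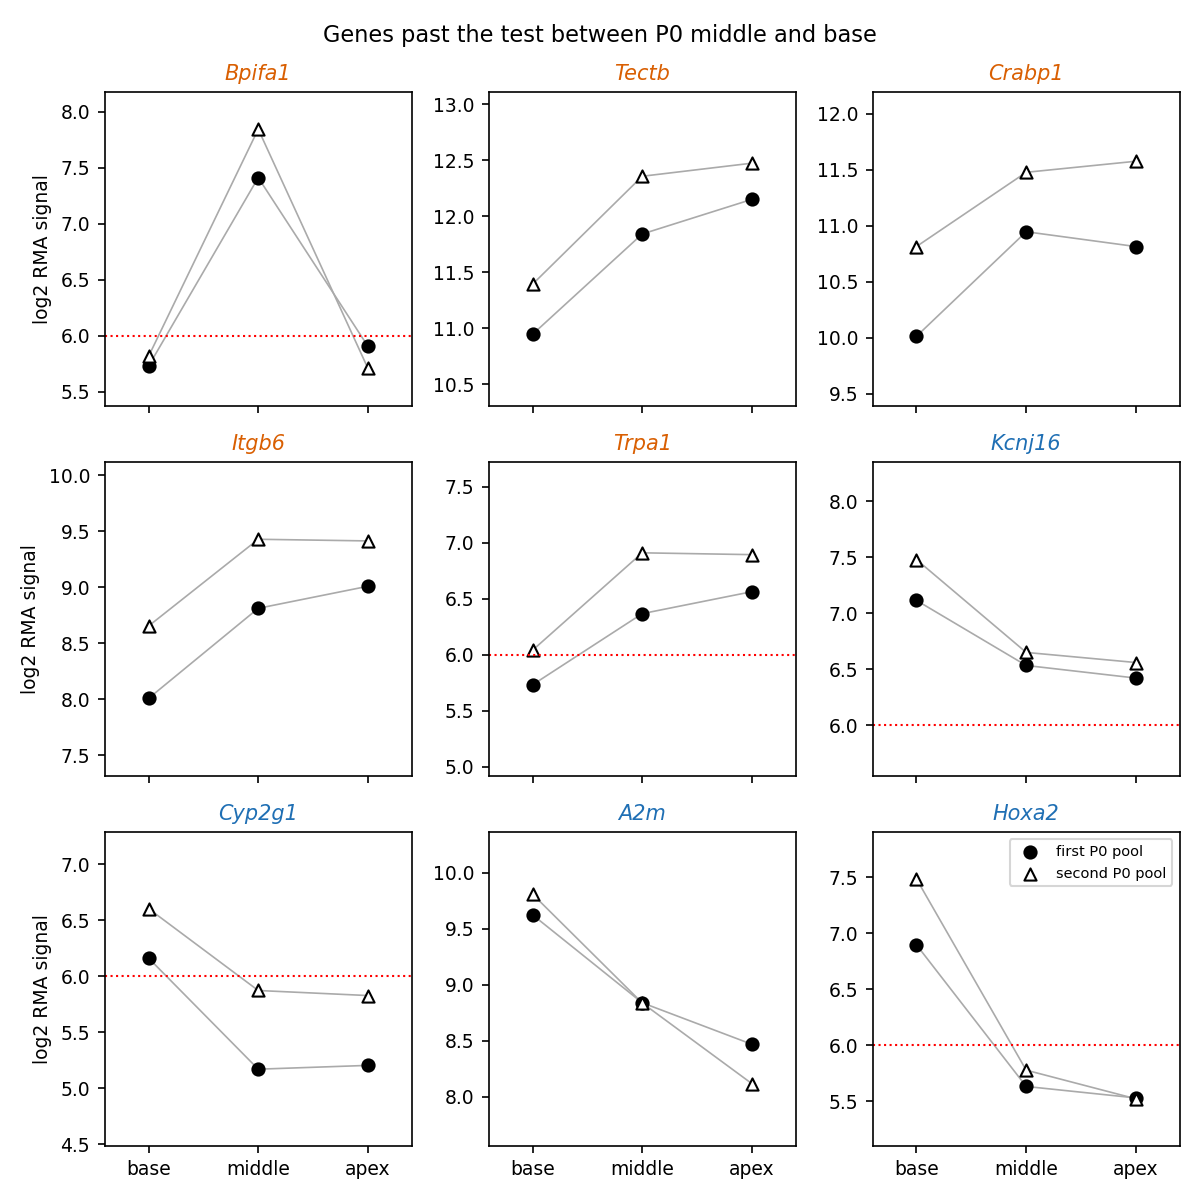
Log2 RMA signal at P0 in base, middle and apex of the 9 genes past the test (orange titles, higher in the middle; blue titles, higher in the base), with filled circles for the first pool, open triangles for the second, lines joining the pieces of 1 pool and the level of 6 dotted where it falls in range. All panels span the same number of log2 units. Bpifa1 returns from 7.41 and 7.84 in the middle to 5.90 and 5.71 in the apex.

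The next genes on each side did not pass and are given as values. Isl1, a LIM homeodomain factor of the prosensory domain and of neurons, read 9.49 and 9.32 in the base and 10.31 and 10.06 in the middle, a difference of 0.78 ± 0.13 (SE, n = 2 pools, adjusted p = 0.0659 from limma). Prkcq, which encodes protein kinase C theta, stood at 0.75 ± 0.13 (adjusted p = 0.0810 from limma) and Pcdh11x, a protocadherin, at 0.74 ± 0.14 (adjusted p = 0.0984 from limma). The arrays of base and middle did not overlap for Isl1 and Prkcq but did for Pcdh11x, at 8.12 in the second base array and 8.06 in the first middle array. On the basal side the next genes were low or uneven between pools. Nox3, the NADPH oxidase of the vestibular organs, read 5.96 and 6.12 in the base and 5.07 and 5.52 in the middle, with −0.75 ± 0.16 (adjusted p = 0.227 from limma), which stands for at least 1.03-fold, since its base mean barely exceeded the level. Mrgprh, an orphan G protein-coupled receptor, differed by −0.43 in the first pool and −1.07 in the second, Bcl2l10, a member of the Bcl2 family, by −1.14 and −0.24, and the pseudogene Btnl5-ps by −1.07 and −0.27. With a middle mean under the level, the difference of Bcl2l10 stands for at least 1.01-fold.

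Some genes were taken up by the study on these arrays for apex against base, so that their direction is not independent evidence. Of these, Tectb, Hoxa2, A2m and Isl1 are described above. Trpa1 and Kcnj16, also described above, are on the study's lists of genes that differ between apex and base at P0. The same holds at P8 for Itgb6, Prkcq and Nox3. Fst, which encodes the activin and BMP antagonist follistatin, read 8.57 and 8.75 in the base and 9.17 and 9.22 in the middle, a difference of 0.54 ± 0.13 (SE, n = 2 pools, adjusted p = 0.344 from limma). Zpld1, a zona pellucida domain protein, stood at 0.55 ± 0.12 (adjusted p = 0.208 from limma). Tecta, the α-tectorin gene, and Otog, the otogelin gene, stood at 0.36 and 0.37, and Atoh1, the master regulator of hair cell fate, at 0.30, with adjusted p of 0.556, 0.555 and 0.803 from limma. Lower in the middle were the values of Atp6v0a4, a subunit of the vacuolar proton pump, at −0.48 ± 0.13 (adjusted p = 0.432 from limma), Gjb6, which encodes connexin 30, at −0.31, Otoa, which encodes otoancorin, at −0.27, Kcnj10, the strial potassium channel Kir4.1, at −0.26 and Cldn11, the claudin that seals the strial basal cell layer, at −0.18. Slc26a4, the anion exchanger pendrin of the outer sulcus, is added here and was not taken up by the study. It read 8.84 and 8.60 in the base and 8.83 and 8.58 in the middle, a difference of −0.02 ± 0.11 (SE, n = 2 pools).

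The lists here and below were chosen with earlier results of these data known, so their counts are not independent evidence. Prosensory, supporting and hair cell genes lay mostly on the side of the middle by small amounts. Of 23 tested prosensory and supporting cell genes, 20 were higher in the middle, 16 of them in both pools, with a median of 0.13 against 0.03 over all tested genes, and 0 passed. At an unadjusted p under 0.05, 5 were higher in the middle and none in the base, against 2.75% and 2.82% of all genes. These 5 were Isl1, Prox1, a factor of supporting cells, at 0.58, Fgf10, a ligand of the prosensory domain, at 0.69, Rorb, a nuclear receptor, at 0.55 and Lin28b, a regulator of developmental timing, at 0.50. Isl1, Prox1 and Rorb are among the genes that the study listed as higher in the apex at P0. The whole list ran from −0.11 to 0.78. The mean log2 signal over its members was 8.53 and 8.71 in the base and 8.74 and 8.93 in the middle, so the shift was there in both pools. Of 24 hair cell genes 19 were higher in the middle, 12 of them in both pools, with a median of 0.07 that was 0.03 on centring, and 1 passed, Trpa1. Smpx, a small muscle and hair cell protein, stood at 0.35, whereas Ocm, the calcium buffer oncomodulin of outer hair cells, stood at −0.42 and Tmc2, a subunit of the early mechanotransduction channel, at −0.37, with adjusted p of 0.785, 0.799 and 0.608 from limma. Ocm was at 6.04 and 6.18 in the base and under the level in both middle arrays. Of 21 genes of the hair bundle and Usher list, 13 were higher in the middle, close to the share over all genes, with none past the test and a median of 0.06 that was 0.01 on centring. The bundle cadherin gene Pcdh15 at 0.49 and the actin bundler gene Pls1 at 0.54 had the highest values of that list, and Strc, which encodes stereocilin, the lowest at −0.37.

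The tectorial membrane list was split. Of 15 tested members 8 were higher in the middle and 7 in the base, with a median of 0.03, which turned to −0.01 when each array was centred on its own median. The highest values were those of non-collagenous glycoproteins. Besides Tectb at 0.93 these were Otogl, the otogelin-like gene, at 0.56 ± 0.10 (SE, n = 2 pools, adjusted p = 0.0948 from limma), Tnc, the tenascin C gene, at 0.57, Zpld1 at 0.55, Otog at 0.37 and Tecta at 0.36. Although Tnc was put in this list, the study's in situ hybridization found it in the basilar membrane and, at P0, also in hair cells. The collagen genes Col9a1, Col9a2, Col9a3 and Col11a2 stood at −0.19, −0.03, −0.17 and −0.16, and Col11a1 at 0.03. Among the non-collagenous members Otoa, at −0.27, Umodl1, a uromodulin-like protein, at −0.06 and Ceacam16, an adhesion protein of the membrane, at −0.05 lay on the side of the base. At an unadjusted p under 0.05, 7 members were higher in the middle and 1, Otoa, in the base, so that 1 gene of the list passed and the rest give values only.

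Guidance and patterning lists are set against the 57.8% of all tested genes that were higher in the middle. They too were chosen with earlier results known, and the study had listed Epha3, Robo2 and Sema3a as higher in the apex at P0. Of 33 axon guidance ligands and receptors, 29 were higher in the middle, 20 of them in both pools, with a median of 0.13 and none past the test, and at an unadjusted p under 0.05 the counts were 9 and 1. Epha3, an ephrin receptor, stood at 0.69 ± 0.11 (SE, n = 2 pools, adjusted p = 0.0566 from limma), with 7.72 and 7.81 in the base and 8.38 and 8.53 in the middle. Robo2, a Slit receptor, stood at 0.56 and Sema3a, a repulsive semaphorin, at 0.44, while Ntn1, the netrin 1 gene, stood at −0.46. Of 18 genes of retinoic acid metabolism 16 were higher in the middle (median 0.08), among them Crabp1, which passed, and Cyp26b1, an enzyme that degrades retinoic acid, at 0.42, while Rbp4, the plasma retinol carrier, stood at −0.48. Of 35 Wnt genes 24 were higher in the middle (median 0.09), with Frzb, a secreted Wnt antagonist, at 0.56. Spiral ganglion neuron genes had a median of 0.11 over 19 members, 14 of them higher in the middle, but −0.04 without the P0 middle array of the first set. The Notch list had 13 of 21 higher (median 0.06), close to the share over all genes, with the ligand gene Jag1 highest at 0.40. The follistatin, activin and BMP list, with 18 of 33 higher, lay at a median of 0.0051 that turned to −0.04 on centring and −0.05 after a further quantile normalization. None of these last 4 lists held a gene past the test.

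The list of outer sulcus, proton pump and anion transport genes lay mostly on the side of the base, by small amounts. Of 17 tested genes for the outer sulcus, proton pump and anion transport, 16 were lower in the middle, 13 of them in both pools, with a median of −0.17, and 1 passed, Kcnj16. Slc4a10, a sodium bicarbonate transporter, stood at −0.52, from 0.12 in the first pool and −1.17 in the second, whose P0 base array was also high in transthyretin, and the median of the list was −0.18 without that array. Car12, a membrane carbonic anhydrase, stood at −0.27, Slc4a11, a membrane transporter of the fibrocytes, at −0.24 and Car2, the cytosolic carbonic anhydrase, at −0.21. The outer sulcus gene Slc26a4 is counted among the 16 but stood at −0.02, with no steady sign. Slc4a4, a sodium bicarbonate cotransporter, was the exception at 0.33. The mean log2 signal over the list was 7.95 and 8.12 in the base and 7.81 and 7.89 in the middle. Strial lists did not share this direction. Of 11 marginal cell genes 8 were higher in the middle (median 0.13), and of 14 intermediate cell genes 11 were (median 0.05), with none past the test in either list. Only 5 of the 14 were higher in both pools. The intermediate cell median was 0.0044 on centring and −0.03 without the P0 base array of the first set, so its direction was not kept in every fit. The marginal cell median was 0.02 without that array. Spiral ligament fibrocyte genes were evenly split, 7 and 7, with a median of 0.01 that turned to −0.03 on centring and −0.01 after a further quantile normalization.

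All 9 tested Hox genes were lower in the middle, 6 of them in both pools, with a median of −0.15 that was −0.02 without the P0 base array of the first set and −0.33 without that of the second, but Hoxa2 stood alone in size, since the other 8 ran from −0.26 for Hoxa4 to −0.02 for Hoxb1. The remaining 6 of the 15 Hox genes listed were under the level in all 6 groups or had no entry of their own. Of 13 hedgehog genes 7 were lower in the middle (median −0.10) and none passed. Hhip, the hedgehog-interacting protein induced by the pathway, stood at −0.60 and the transcriptional target Gli1 at −0.44, while Gli3 stood at 0.39.

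Among tissues that the dissection could carry along, the bone, tendon and red blood cell lists had medians on the side of the base. Of 9 tested bone and osteoblast genes 6 had a lower signal in the middle and 3 a higher one, each in both pools. The median was −0.25, and the mean log2 signal over the 9 was 7.73 and 7.46 in the base and 7.55 and 7.29 in the middle. Within the pools the bone median was −0.27 in the first and −0.14 in the second. In the fits with 1 array left out it was −0.44 without the P0 base array of the first set and 0.01 without that of the second, so its direction was not kept in every fit. Col1a2 stood at −0.36 and Sp7, the osteoblast factor osterix, at −0.45, and none passed. Of 9 tendon genes 8 were lower (median −0.19), and the 5 tested red blood cell genes, 2 of which were under the level in both regions, were all lower (median −0.17, and −0.02 without the P0 base array of the first set). Cartilage genes had a median of −0.08 over 14 members and skeletal muscle genes one of −0.03 over 22, the latter at 0.01 after a further quantile normalization, and both medians were 0.05 without the P0 base array of the second set. The list of macrophages and other leukocytes had 10 of 16 members higher in the middle (median 0.07), but a median of −0.08 without the P0 base array of the first set. Of 10 vestibular and otoconial genes 7 were lower in the middle, 4 of them in both pools, with a median of −0.04 and none past the test. The part of such tissue in the results of the 4 basal genes was not tested. Transthyretin (Ttr), the main product of the choroid plexus, set 1 array apart. Its log2 signal was 9.78 and 12.19 in the base and 9.88 and 9.70 in the middle, so that the P0 base array of the second pool was high alone. Folr1, a folate receptor of the choroid plexus, followed it less strongly, with 6.77 and 7.37 in the base and 6.74 and 6.55 in the middle, but Kcnj13, a channel of the same epithelium, read 8.77 and 10.09 in the base and 9.09 and 10.03 in the middle. Among list members, chosen after their values were seen, Slc4a10 of the outer sulcus list differed by 0.12 in the first pool and −1.17 in the second, and Cldn1, a claudin of tight junctions, by 0.21 and −1.10, so that, as for Ttr, the middle was lower in the second pool alone. Neither Ttr nor Folr1 passed (adjusted p = 0.762 and 0.742 from limma). Without that array Hoxa2, A2m, Cyp2g1 and Kcnj16 stood at −1.23, −0.70, −0.97 and −0.59 (adjusted p = 0.133, 0.147, 0.0972 and 0.134 from limma), and Bpifa1, Tectb, Crabp1, Itgb6 and Trpa1 at 1.84, 0.94, 0.88, 0.86 and 0.69.

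**Figure D3:**
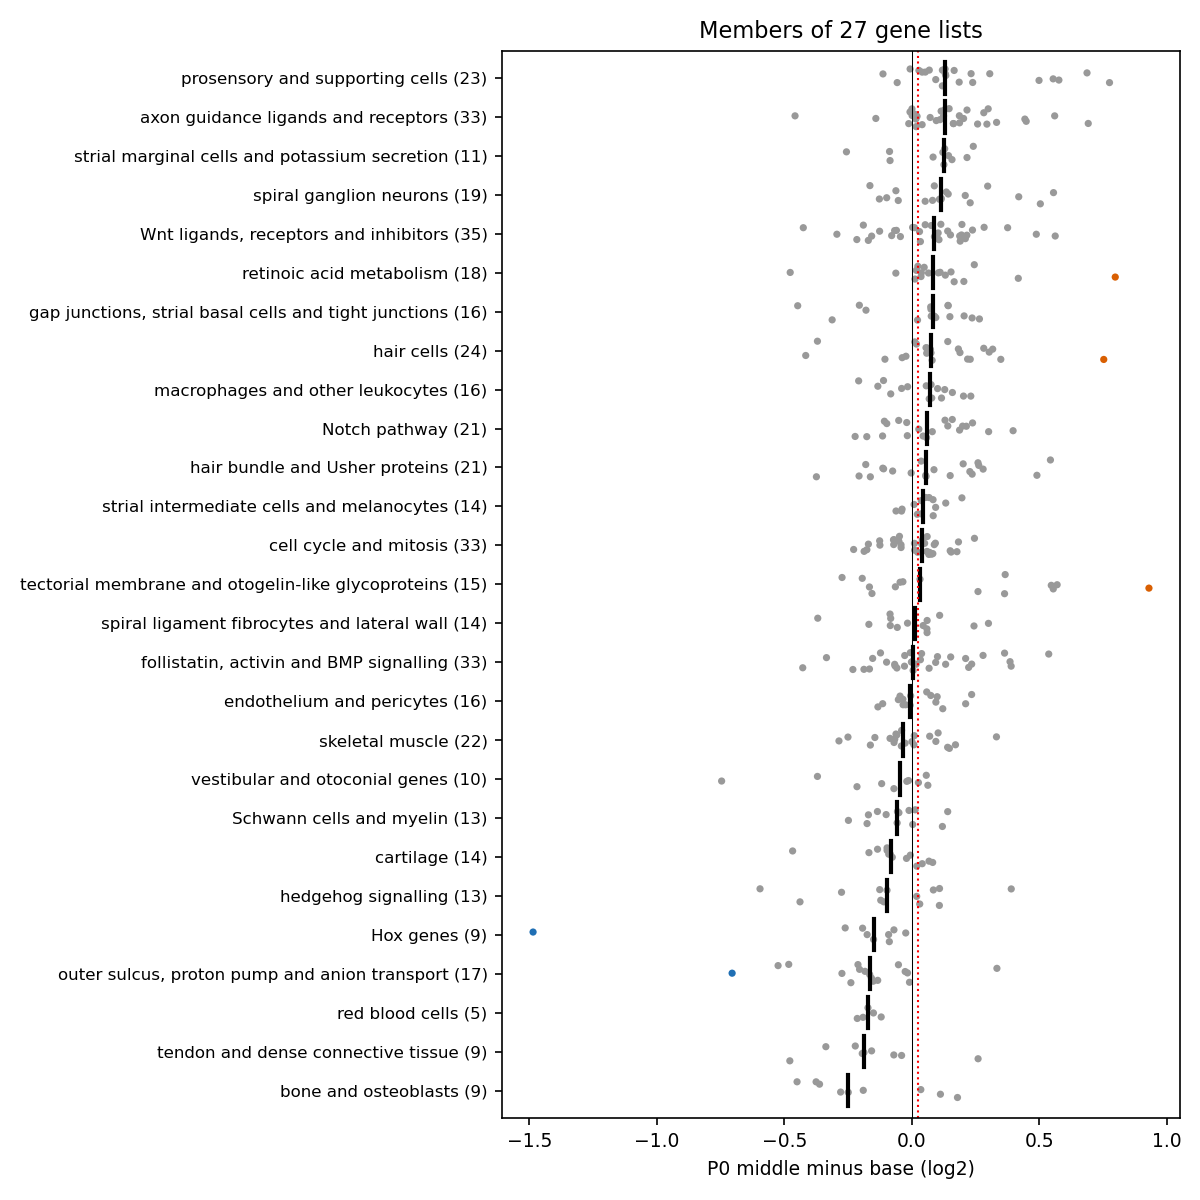
Log2 difference of P0 middle over P0 base (x axis) for the tested members of 27 gene lists, with the number of members in brackets, 1 point for each gene, a black bar at each median and a dotted red line at the median of all tested genes. Orange points passed with the middle higher and blue points with the base higher. The medians run from −0.25 for bone to 0.13 for prosensory and supporting cell genes, and 5 of the lists hold a coloured point.

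The step from base to middle and the step from middle to apex share the P0 middle arrays, so that an error in those arrays enters both with opposite sign, and the values are set side by side. From middle to apex 48 genes passed (0.294%), 13 higher in the apex (0.0797%) and 35 in the middle (0.215%). Of the 9 genes past the basal step, 7 had their middle mean between those of base and apex, the exceptions being Bpifa1 and Crabp1. The 9 genes were chosen by their basal step, which favours a small apical one, and the middle and apex means of Hoxa2 and Cyp2g1 were both under the level, so the apical values are given with no reading. Tectb rose by 0.93 from base to middle and differed by 0.21 ± 0.11 from middle to apex. The same pair of values was 0.79 and 0.09 for Itgb6, 0.75 and 0.09 for Trpa1, 0.80 and −0.02 for Crabp1, −1.49 and −0.18 for Hoxa2, −0.70 and −0.10 for Kcnj16 and −0.86 and −0.01 for Cyp2g1 and −0.88 and −0.55 for A2m. Among the genes taken up by the study the values were 0.55 and 1.49 for Zpld1, 0.54 and 1.17 for Fst and −0.48 and −1.56 for Atp6v0a4, each of which passed at P0 in the apical step alone. The difference between the 2 steps was itself tested, and 1 gene passed (0.00613%). This was Bpifa1, with a difference of 3.68 ± 0.24 (SE, n = 2 pools, adjusted p = 1.76e-05 from limma), and it passed also without the replicate block (adjusted p = 0.0180 from limma). For no other gene was the basal step shown to differ from the apical one, and the adjusted p was 0.893 for Atp6v0a4 and 0.923 for Zpld1.

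**Figure D4:**
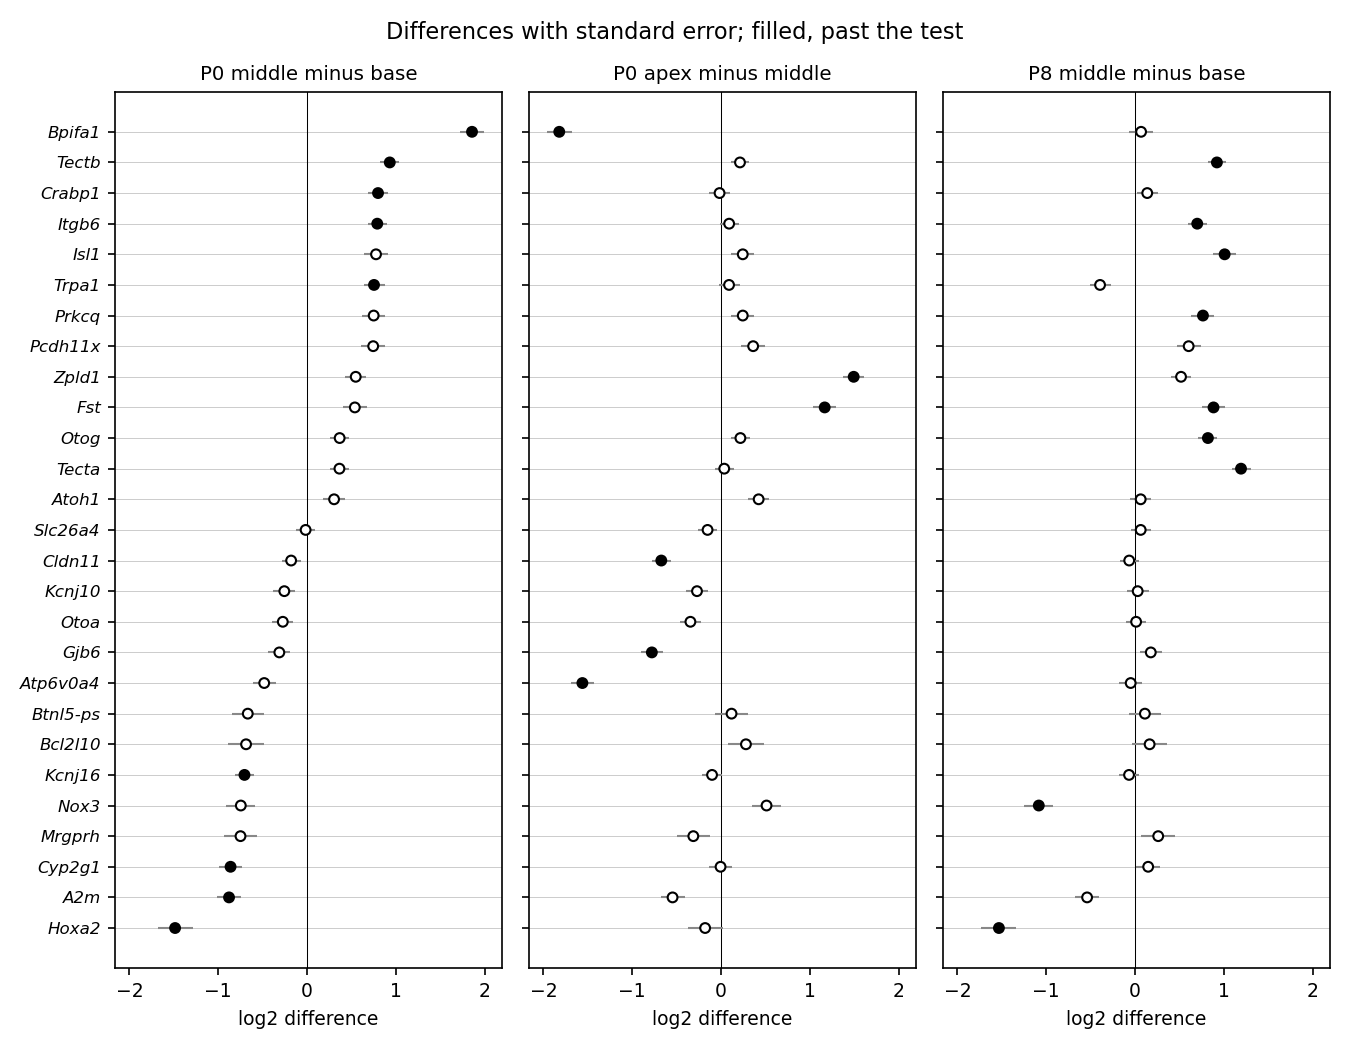
Log2 difference with SE from limma (n = 2 pools) for 27 named genes in P0 middle over base, P0 apex over middle and P8 middle over base, with filled symbols for differences past the test. Tectb, Itgb6 and Hoxa2 are filled at both ages between base and middle, whereas Fst, Zpld1 and Atp6v0a4 are filled at P0 only between middle and apex.

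The same 2 regions were compared at P8, on arrays that share none with P0. The fit gave each gene a common estimate of the spread for both ages, however. A gene that passed at P0 with a small spread carries that spread into the test at P8, so the 2 tests are not fully independent. There 88 genes passed between middle and base (0.54%), 71 higher in the middle (0.435%) and 17 in the base (0.104%). Of the 9 genes past the test at P0, Tectb, Itgb6 and Hoxa2 passed again in the same direction, with 0.92 ± 0.11, 0.70 ± 0.11 and −1.53 ± 0.20 (SE, n = 2 pools, adjusted p = 0.00145, 0.00872 and 0.00269 from limma). Isl1 also passed at P8, at 1.01 ± 0.13 (adjusted p = 0.00278 from limma), and Prkcq, at 0.76 ± 0.13 (adjusted p = 0.0149 from limma). A2m stood at −0.54 ± 0.13 without passing (adjusted p = 0.127 from limma), and Crabp1, Kcnj16 and Cyp2g1 stood at 0.14, −0.07 and 0.15, although for none of these was the change with age past its own test (adjusted p = 0.564, 0.464 and 0.174 from limma). The level of Crabp1 and Kcnj16 moved with age in both regions. Crabp1 lay between 10.01 and 11.48 in the 4 arrays of P0 and between 7.58 and 7.86 in those of P8. Kcnj16 lay between 6.53 and 7.48 at P0 and between 8.99 and 9.57 at P8.

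The change of the difference from P0 to P8 was past its test in 4 genes (0.0245%), without a fold threshold. Chrna3, the α3 subunit of nicotinic acetylcholine receptors, was under the level in all 4 arrays of P0, between 5.66 and 5.74, and read 6.27 and 6.58 in the base and 8.20 and 8.56 in the middle at P8, so that its difference grew by 1.95 ± 0.16 (SE, n = 2 pools at each age, adjusted p = 3.62e-04 from limma). Bpifa1 lost its difference, with P8 signals of 5.56 and 5.77 in the base and 5.59 and 5.88 in the middle and a change of −1.79 ± 0.20 (adjusted p = 0.00422 from limma). Dmp1, a matrix protein of osteocytes, read 6.15 and 5.97 in the base and 6.33 and 6.15 in the middle at P0 but 9.46 and 8.42 against 7.92 and 7.25 at P8, a change of −1.53 ± 0.21 (adjusted p = 0.0313 from limma). Trpa1 was under the level in both regions at P8, between 5.10 and 5.67, and its change was −1.15 ± 0.17 (adjusted p = 0.0478 from limma). Without the replicate block none of the 4 changes passed.

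**Figure D5:**
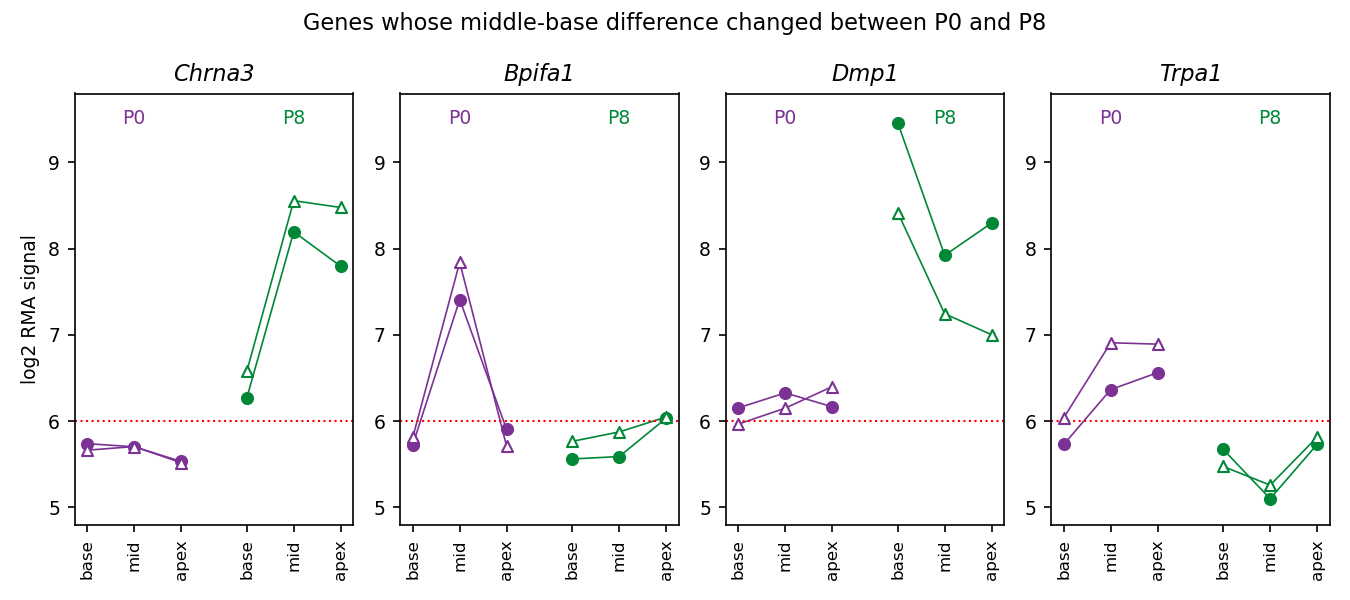
Log2 RMA signal in base, middle and apex at P0 (purple) and P8 (green) of the 4 genes whose middle-base difference changed between the ages, with filled circles and open triangles for the first and second dissection set, lines joining the pieces of 1 pool and the level of 6 dotted. Bpifa1 is above the level only in the P0 middle arrays apart from readings of 6.03 and 6.05 in the P8 apex, and Chrna3 only at P8.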

How the data were processed

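The deposited values are log2 signals that the authors made with robust multiarray averaging (RMA) from Affymetrix Mouse Gene 1.0 ST arrays, 1 per pooled RNA. RMA corrects the background, normalizes between arrays and summarizes the probes of an entry. Its version, and whether all 12 arrays went through 1 run, are not given in the sources used here. Probe-level data and background calls were not used here, so no detection call stands behind the level of 6, which is the one that the study's methods name.

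Of 35556 entries, 21789 carried 1 gene symbol, 1621 several and 12146 none, and only the first were used. Of 999 genes with more than 1 entry, that with the highest mean over the 12 arrays was kept. The median signal of the tested genes was 8.04 to 8.15 in the 4 arrays, and 16253 genes were matched to RefSeq by Entrez identifier. The number of arrays limits the precision.

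The fit used lmFit and eBayes of limma 3.58.1 (R 4.3.3), with 6 group means and a replicate block for the pool of each age, which left 4 residual and 8.96 prior degrees of freedom. The block follows from the dissection, in which the regions of 1 set and age were cut from the same cochleae, and the deviations of P0 base and P0 middle from their means correlated with r = 0.855 across genes. The methods' unpaired test is among the alternatives. The block removes the shift between the 2 pools of an age. The p-values measure how far the differences between regions varied from pool to pool. That spread was estimated for each gene over both ages and moderated across genes, so a gene has the same SE at P0 and P8.

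Named genes are those past the test on each side, filled to 8 a side with the largest differences at an unadjusted p under 0.05 in 1 direction in both pools (gene models left out), list members past the test, genes that the study took up with Slc26a4 added, and those past the tests of the change with age and of the difference of the steps. The members and lists were chosen with earlier results of these data known, so no p is given for a list. The fit was tested on simulated data. Python 3.11.15 was used for tables and plots, with pandas 2.3.3, numpy 2.4.6 and matplotlib 3.10.9.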

Additional observations from a re-analysis of the deposited data

Results flagged for a closer look

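The difference between P0 middle and base differed from that between P8 middle and base in 4 genes by the test of the change itself (limma, adjusted p under 0.05). On the log2 scale the change from P0 to P8 was 1.95 for Chrna3, −1.79 for Bpifa1, −1.53 for Dmp1 and −1.15 for Trpa1. Part of the change lies under the level of 6, in both regions at P0 for Chrna3 and in both at P8 for Bpifa1 and Trpa1. The change of Chrna3 passed without each of the 12 arrays in turn, with an adjusted p of at most 0.0183. The changes of Bpifa1, Dmp1 and Trpa1 passed in 9, 6 and 3 of these 12 fits, and that of Bpifa1 was lost without either P0 base array and without the P8 middle array of the first set, with an adjusted p of at most 0.129. With 2 arrays per group no single array was tested as an outlier.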

How the results depend on the processing

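The replicate block decides most calls. Against 5 genes higher in the middle, 4 in the base and 4 with a change with age, no replicate block left 0, 0 and 0, a replicate block of the dissection set over both ages 1, 0 and 0, and a random block 2, 0 and 2. The P0 arrays alone gave 2 and 2. The 4 arrays of P0 base and middle alone gave 19 and 13, a fit with 1 residual degree of freedom in which each gene past the fold passed. Other settings gave, for middle, base and change, 3, 1 and 3 with no filter on the level, 6, 4 and 2 with the level required in P0 base or middle, 3, 1 and 1 after a further quantile normalization, 2, 0 and 1 with arrays centred on their medians, and 6, 4 and 4 with the mean over the entries of a gene. The methods' t-test at an unadjusted p with the same fold gave 7 and 3, with A2m, Bpifa1 and Hoxa2 shared with the 9, and 0 and 0 after Benjamini-Hochberg. With all 27361 entries tested, an alternative chosen after seeing the data, 0 and 0 passed, and Bpifa1 had an adjusted p of 0.0516. Bpifa1 stayed the only gene past the test of the 2 steps in every setting without a left-out array.

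Leaving out 1 array in turn gave 1 to 10 genes higher in the middle, 0 to 4 in the base, 1 to 148 with a change with age and 1 to 4 past the test of the steps. The highest counts came without either P8 apex array (10), without the P8 base array of the second set (148) and without the P0 apex array of the second set (4). The counts for the middle fell to 1 without any of the P0 base and P0 middle arrays and rose to 8 without either P8 base array, and that for the base was 2 without either P8 middle array. Without the P0 base array of the first set Ttr was called higher in the base. Values near 0 changed sign. Slc26a4, at −0.02, ran from −0.062 to 0.028 when 1 array was left out, above 0 at 0.012 without the P0 middle array of the first set and at 0.028 without the P0 base array of the second. Chrna3 at P0 went from 0.0029 to −0.038 with centred arrays and ran from −0.032 to 0.038 when 1 array was left out, under 0 at −0.032 without the P0 base array and at −0.021 without the P0 middle array of the second set. Over 795 recomputed gene values, 5 changed sign, 631 kept direction and side of the threshold, 139 lost the call and 20 gained it. Of 27 list medians, 5 changed sign under one of the scalings and 12 when 1 array was left out.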
